A study of Mus musculus with 24 samples.

Results

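Both high fat groups of a mouse skeletal muscle array study were compared with its low fat group. The members are 16 of the 24 arrays of the series, all those labelled HFD_Cont (8 arrays, high fat diet, control lineage) or HFD_O3 (8 arrays, high fat diet, omega-3 lineage), chosen by their labels alone. They were set against the 8 arrays labelled STD_Cont (low fat control diet, control lineage), with 1 array per sample and the mean of the 2 high fat group means standing for high fat. All STD_Cont mice were of the control lineage and 8 of the 16 high fat mice of the omega-3 lineage, so the pooled difference holds the diet in both groups and, through the HFD_O3 mice, any lineage effect. The strain, sex and age of the mice, the muscle taken, the length of the diet, the hour and feeding state at collection, and the nature of the omega-3 lineage, do not appear in the labels. Nothing says whether the mice of a group were littermates or cage mates, so p-values measure the spread between these samples.

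Skeletal muscle takes up most of the glucose cleared after a meal and switches to fatty acids in fasting. FOXO transcription factors, which insulin holds out of the nucleus, and the glucocorticoid receptor, which stress hormones activate, induce ubiquitin ligases and fuel-switch genes in muscle. Many of those genes also follow the time of day, since muscle has its own circadian clock.

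The arrays are one-colour Agilent arrays, and a level here is a log2 intensity relative to the 75th percentile of its own array, which is 0 on this scale. Between 52.0 and 60.7% of the spots of an array were well above background, and 0 spots were saturated. Values after ± are the SD of 8 arrays for a level and the moderated standard error for a change, and adjusted p-values are limma's with Benjamini-Hochberg adjustment over all names. With dim probes removed, 19938 names were tested, 13500 of them plain gene symbols. All 15 skeletal muscle fibre markers, among them Ckm, Acta1 and Myh4, were well above background on all 24 arrays, and their summed linear level ranged over 9091 to 12176 on HFD_Cont arrays, 8529 to 12355 on HFD_O3 arrays and 9166 to 11479 on STD_Cont arrays, in multiples of the 75th percentile. The arrays sat on 3 slides in 2 rows each. Every slide carried all 3 groups, but row 2 of slide 1 and row 1 of slide 2 held no STD_Cont array. White adipocyte markers differed between arrays of every group. Their mean level, each gene centred over the 24 arrays, ran from -0.81 to 1.68 in HFD_Cont, from -0.98 to 1.33 in HFD_O3 and from -1.02 to 0.98 in STD_Cont. Among the genes that were lower in high fat muscle, HFD_O3 7 lay above the STD_Cont median for 50.4%, while the other 15 high fat arrays did so for at most 12.0%. Among the higher genes, HFD_O3 8 lay below the STD_Cont median for 22.7%, HFD_O3 7 for 18.6% and the other 14 for at most 8.7%. Of the STD_Cont arrays, STD_Cont 6 lay furthest towards high fat, above the STD_Cont median for 15.3% of the lower genes and below it for 23.9% of the higher. HFD_O3 7 was kept in all values, and the count without it is given with the overall result.

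Of the 19938 names, 596 passed a limma adjusted p of 0.05 between both high fat groups and STD_Cont, which is 2.99% of those tested. 322 of them (1.62%) were higher and 274 (1.37%) lower in high fat muscle. The changes were small. The median size among the 596 was 0.37 on the log2 scale, against 0.07 over all names tested, and 24 exceeded 1, of which 16 were lower and 8 higher. The largest fall was that of Depp1, a target of FOXO factors, at 5.55 times lower, and the largest rise among genes well above background in every group was that of Otud1, a deubiquitinase, at 2.98 times higher. Without HFD_O3 7 the count was 1142 with more lower than higher (493 higher, 649 lower), and without STD_Cont 1 it was 215. For 8 names (0.0401%) the 16 high fat and 8 STD_Cont arrays did not overlap at all. These 8, named after their values were seen, were Avil, Ccnd2, Cnn2, Dynll1, Fam89a, Sh3bgrl3 and Slc39a10, which were higher in high fat, and the transcript ENSMUST00000071522, which was lower.

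**Figure D1:**
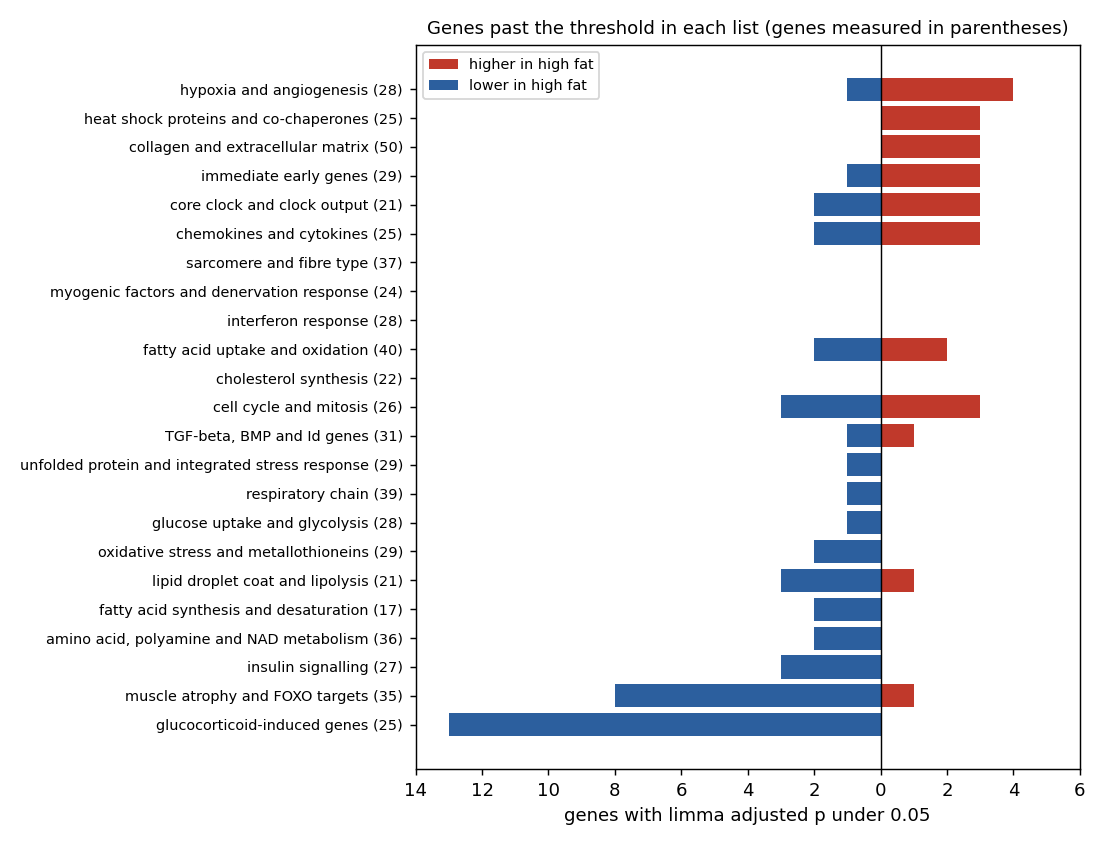
Number of genes past a limma adjusted p of 0.05 in each gene list, with genes higher in high fat muscle to the right and lower to the left, and the number of measured genes in parentheses. The longest bar is that of 13 lower genes among 25 glucocorticoid-induced genes, followed by 8 lower genes among 35 atrophy and FOXO targets.

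Glucocorticoid-induced genes were lower in high fat muscle as a list. Of 25 measured, 13 fell, 0 rose and 12 did not pass, against 1.37% falling over all names, and 23 of 25 changes were negative. This list, like the others, was chosen with earlier results of these data known, so its share is a description and not a test. The median change of the list was -0.40, beside 0.0002 over all names. It was -0.50 for HFD_Cont and -0.36 for HFD_O3 against the same STD_Cont arrays, and -0.45, -0.45 and -0.22 within slides 1, 2 and 3. The 13 were Fkbp5, Hif3a, Zbtb16, Klf9, Cebpb, Arrdc2, Il6ra, Glul and, named only to complete the count, Sult1a1, Nfkbia, Lcn2, Tsc22d3 and Hsd11b1. Hif3a, a hypoxia-inducible factor subunit that glucocorticoids induce, ranged over log2 levels of -4.27 to -2.98 on HFD_Cont arrays with a median of -3.49, over -3.66 to -2.38 on HFD_O3 arrays with a median of -3.05, and over -2.67 to -1.63 on STD_Cont arrays with a median of -2.07. The high fat and STD_Cont ranges overlapped at their edges, and all 16 high fat arrays lay below the STD_Cont median. Its fall was -1.16 ± 0.16 on the log2 scale, 2.23-fold, with an adjusted p of 0.000734. On HFD_Cont arrays Fkbp5, a co-chaperone that holds the glucocorticoid receptor in check, lay between 2.34 and 3.47 (median 2.94), on HFD_O3 arrays between 2.22 and 4.66 (median 3.02) and on STD_Cont arrays between 3.28 and 4.81 (median 4.50), in log2 units. 15 of 16 high fat arrays lay below the STD_Cont median, and the ranges overlapped. Fkbp5 was thus 2.27 times lower in high fat muscle (-1.18 ± 0.27, adjusted p = 0.022). Zbtb16, a zinc finger transcription factor, fell (-0.67 ± 0.12, adjusted p = 0.00584), with 15 of 16 high fat arrays below the STD_Cont median. Klf9, a Krüppel-like factor, changed by -0.40 ± 0.09 (adjusted p = 0.0139), by -0.48 in HFD_Cont and -0.32 in HFD_O3. Cebpb, a C/EBP transcription factor, averaged 4.13 ± 0.09 in HFD_Cont and 4.40 ± 0.43 in HFD_O3, against 4.77 ± 0.14 in STD_Cont, a change of -0.51 ± 0.11 (adjusted p = 0.0167). Arrdc2, an alpha-arrestin, had log2 levels of 1.80 to 2.72 in HFD_Cont (median 2.18) and 2.08 to 5.66 in HFD_O3 (median 2.87), against 3.07 to 4.85 in STD_Cont (median 4.17). High fat and STD_Cont arrays overlapped, though 15 of 16 high fat arrays were below the STD_Cont median. The pooled change was -1.37 ± 0.33 (adjusted p = 0.0248), or 2.58 times lower in high fat. Il6ra, the interleukin-6 receptor chain, fell (-0.88 ± 0.21, adjusted p = 0.0272), with 15 of 16 high fat arrays below the STD_Cont median. Glul, glutamine synthetase, changed by -0.87 ± 0.23 (adjusted p = 0.0437), by -1.13 in HFD_Cont and -0.60 in HFD_O3.

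**Figure D2:**
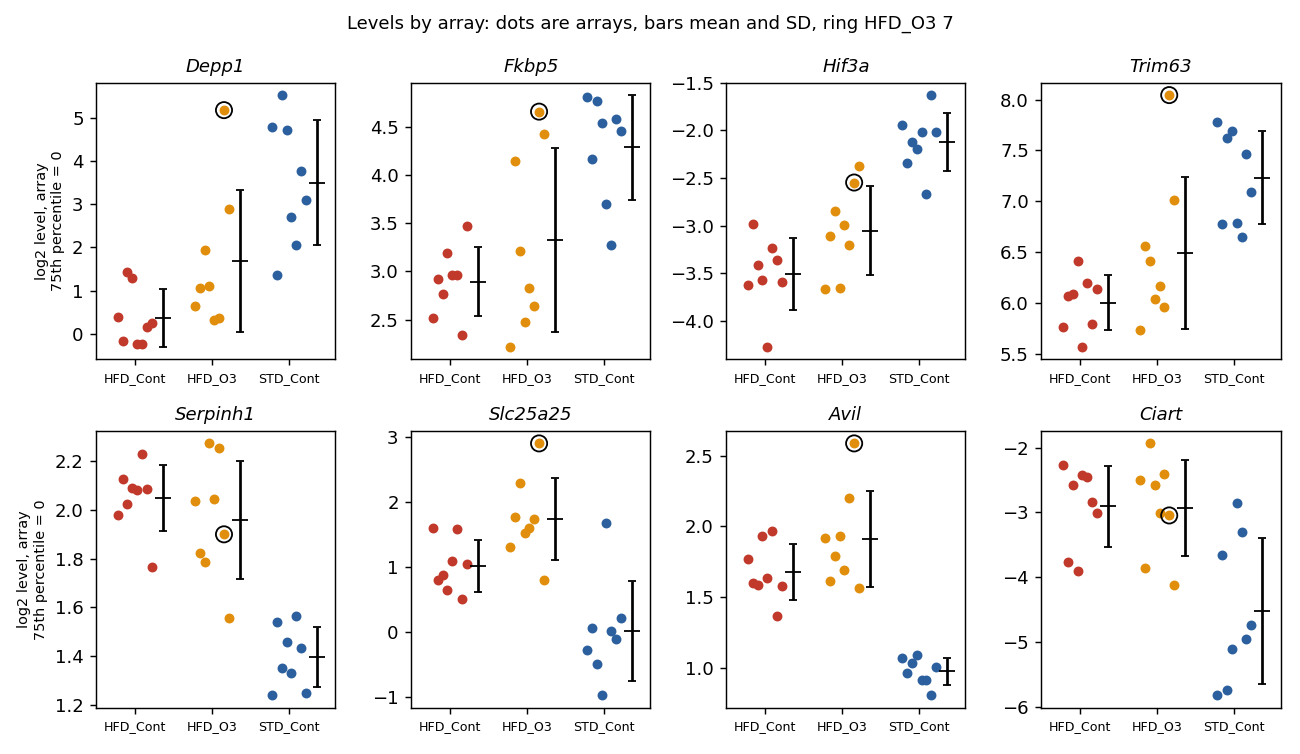
Log2 level relative to the array's 75th percentile on each array for 8 genes, with HFD_Cont and HFD_O3 left of STD_Cont, dots for arrays and bars for the mean and SD of 8 arrays. Depp1, Fkbp5 and Trim63 lay below the STD_Cont median on all high fat arrays but the ringed HFD_O3 7 (5.17 for Depp1), Hif3a did so on all 16, and all 16 high fat arrays lay above all STD_Cont arrays only for Avil among the 8.

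Atrophy and FOXO target genes fell more often than they rose. Of 35 measured atrophy and FOXO target genes, 8 fell, among them Depp1, Trim63, Foxo1, Foxo3, Cdkn1a, Mt1 and Cited2, Bcl6 rose and 26 did not pass, against 1.37% falling and 1.62% rising over all names. With a block for slide and array row 1 fell and 1 rose, and without the 7 arrays highest in white adipocyte markers 0 passed. The median change was -0.19, with 30 of 35 negative, and -0.26, -0.26 and -0.02 within slides 1, 2 and 3. Depp1 ranged over log2 levels of -0.24 to 1.44 on HFD_Cont arrays with a median of 0.21, over 0.33 to 5.17 on HFD_O3 arrays with a median of 1.09, and over 1.36 to 5.52 on STD_Cont arrays with a median of 3.43. Its probe lies at chr6:116602564-116602623 (mm9). The groups overlapped, with 15 of 16 high fat arrays below the STD_Cont median. Its fall was -2.47 ± 0.54 on the log2 scale, 5.55-fold, with an adjusted p of 0.0173. On HFD_Cont arrays Trim63, which encodes the muscle ubiquitin ligase MuRF1, lay between 5.57 and 6.41 (median 6.08), on HFD_O3 arrays between 5.73 and 8.04 (median 6.29) and on STD_Cont arrays between 6.65 and 7.78 (median 7.28), in log2 units. 15 of 16 high fat arrays lay below the STD_Cont median, and the ranges overlapped. Trim63 was thus 1.98 times lower in high fat muscle (-0.98 ± 0.22, adjusted p = 0.0175). Foxo1, a FOXO transcription factor, averaged 2.16 ± 0.14 in HFD_Cont and 2.36 ± 0.38 in HFD_O3, against 2.80 ± 0.31 in STD_Cont, a change of -0.54 ± 0.12 (adjusted p = 0.0195). Cdkn1a, the cell cycle inhibitor p21, fell (-0.93 ± 0.23, adjusted p = 0.0304), changing by -1.28 in HFD_Cont and -0.58 in HFD_O3. Mt1, a metallothionein, changed by -0.93 ± 0.20 (adjusted p = 0.0173), by -1.11 in HFD_Cont and -0.75 in HFD_O3. Bcl6, a transcriptional repressor, averaged 5.16 ± 0.26 in HFD_Cont and 4.72 ± 0.29 in HFD_O3, against 4.42 ± 0.24 in STD_Cont, a change of 0.51 ± 0.11 (adjusted p = 0.0142).

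**Figure D3:**
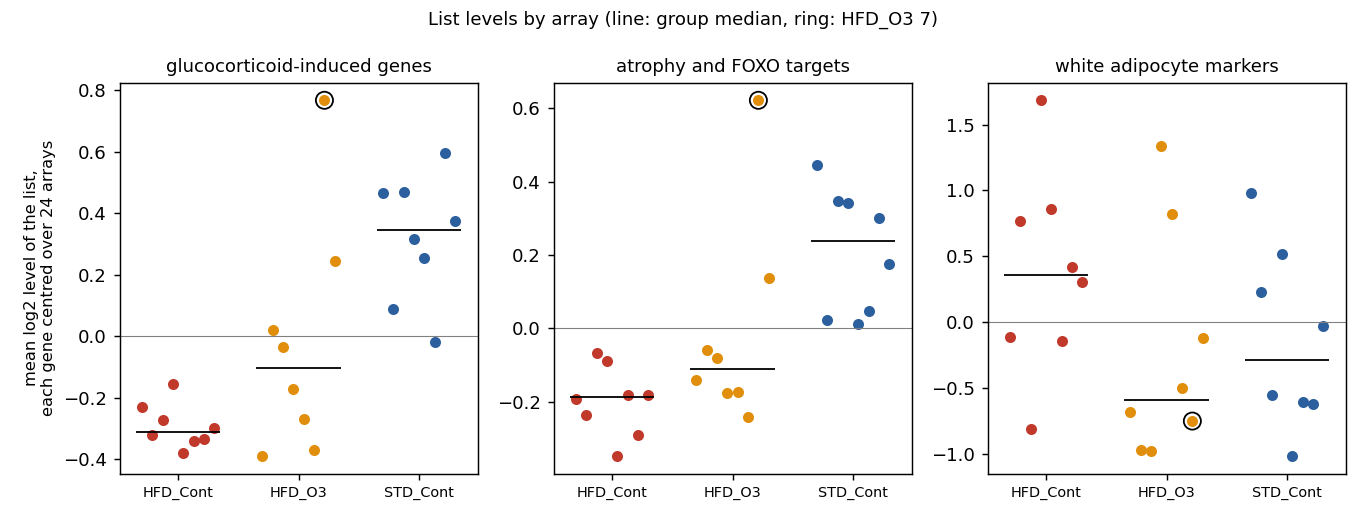
Mean log2 level on each array of the glucocorticoid-induced, atrophy and FOXO, and white adipocyte lists, each gene centred over 24 arrays, with HFD_Cont and HFD_O3 left of STD_Cont and lines for group medians. The glucocorticoid list had medians of -0.31 for HFD_Cont, -0.10 for HFD_O3 and 0.34 for STD_Cont. The ringed HFD_O3 7 stood highest at 0.77, and white adipocyte levels overlapped between all groups.

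Clock genes moved in both directions. Of 21 measured, 3 rose (Ciart, Nr1d2 and Per3), 2 fell (Arntl and Clock) and 16 did not pass, with a list median of 0.03. The share passing was 23.8%, beside 2.99% of all names. With a block for slide and array row 0 passed, and without the 7 arrays highest in white adipocyte markers 0 passed. With median scaling 1 rose and 0 fell, and with quantile normalization 3 rose and 2 fell. With 1 array left out, Per3 passed in 6 of 24 fits, Clock in 11, Arntl in 19, Nr1d2 in 21 and Ciart in 23. Ciart, a repressor of the CLOCK and BMAL1 pair, had log2 levels of -3.91 to -2.27 in HFD_Cont (median -2.71) and -4.12 to -1.94 in HFD_O3 (median -2.80), against -5.82 to -2.85 in STD_Cont (median -4.84). The probe was dim, well above background on 8 HFD_Cont, 6 HFD_O3 and 3 STD_Cont arrays. The groups overlapped, and all 16 high fat arrays lay above the STD_Cont median. The pooled change was 1.60 ± 0.35 on the log2 scale (adjusted p = 0.0173), its size uncertain because most STD_Cont values were not well above background. Nr1d2, the nuclear receptor REV-ERB beta, rose (0.25 ± 0.06, adjusted p = 0.0251), with 15 of 16 high fat arrays above the STD_Cont median. Per3, a period gene, changed by 0.45 ± 0.12 (adjusted p = 0.0495), by 0.51 in HFD_Cont and 0.38 in HFD_O3. Arntl, which encodes BMAL1, averaged 1.44 ± 0.20 in HFD_Cont and 1.62 ± 0.28 in HFD_O3, against 1.93 ± 0.19 in STD_Cont, a change of -0.40 ± 0.10 (adjusted p = 0.0268). Clock, the partner of BMAL1, fell (-0.24 ± 0.06, adjusted p = 0.0398), with 15 of 16 high fat arrays below the STD_Cont median.

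RefSeq promoters (GRCm38.p6, 250 bases before to 50 after the start) were available for 68 of the 91 genes that passed the threshold and the naming rule, with 87 promoters in all. They were searched on both strands for the E-box CACGTG, bound by CLOCK and BMAL1, the FOXO motif GTAAACA with its reverse complement and the clock output motif named D-box, TTATGTAA, also with its reverse complement. The E-box was in 12 of the 87 promoters (13.8%), beside 7.15% of 32851 promoters of the same length. The FOXO motif was in 6 (6.9%), beside 3.65%, and the D-box in 1 (1.15%), beside 0.938%. The motifs cannot overlap one another by more than a few letters, and a match describes letters in the window, not binding. The promoters of Ciart, Per3, Trim63 and Fkbp5 are shown as examples of matches, for a clock repressor, a period gene, a FOXO target and a glucocorticoid target. All of those shown hold a motif, while most of the 87 promoters did not, so they do not represent the searched set. The naming rule had already put members of the clock and FOXO lists into that set. Capitals mark the motifs.
Ciart promoter, chr3:95882179-95882478, minus strand, 3 E-boxes starting at -116, -58 and -44: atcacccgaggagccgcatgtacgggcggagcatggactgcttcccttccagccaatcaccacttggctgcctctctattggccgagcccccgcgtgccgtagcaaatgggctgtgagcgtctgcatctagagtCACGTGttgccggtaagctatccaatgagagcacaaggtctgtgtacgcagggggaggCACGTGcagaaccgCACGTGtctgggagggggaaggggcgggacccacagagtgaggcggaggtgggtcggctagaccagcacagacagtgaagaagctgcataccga
Per3 promoter, chr4:151044616-151044915, minus strand, 2 D-boxes starting at -205 and -158: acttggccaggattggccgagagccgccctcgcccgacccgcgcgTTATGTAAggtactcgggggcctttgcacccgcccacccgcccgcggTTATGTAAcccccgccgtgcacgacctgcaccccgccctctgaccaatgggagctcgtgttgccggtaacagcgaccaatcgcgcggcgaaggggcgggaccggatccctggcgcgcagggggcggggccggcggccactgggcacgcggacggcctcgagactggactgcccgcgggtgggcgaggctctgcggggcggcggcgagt
Trim63 promoter, chr4:134314870-134315169, plus strand, 1 FOXO motif starting at -194: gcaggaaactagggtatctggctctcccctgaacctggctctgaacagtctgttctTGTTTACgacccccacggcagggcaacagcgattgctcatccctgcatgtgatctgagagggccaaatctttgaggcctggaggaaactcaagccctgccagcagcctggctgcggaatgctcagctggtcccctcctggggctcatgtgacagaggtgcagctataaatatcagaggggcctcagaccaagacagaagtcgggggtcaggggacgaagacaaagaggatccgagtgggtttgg
Fkbp5 promoter, chr17:28486100-28486399, minus strand, 1 E-box starting at -169: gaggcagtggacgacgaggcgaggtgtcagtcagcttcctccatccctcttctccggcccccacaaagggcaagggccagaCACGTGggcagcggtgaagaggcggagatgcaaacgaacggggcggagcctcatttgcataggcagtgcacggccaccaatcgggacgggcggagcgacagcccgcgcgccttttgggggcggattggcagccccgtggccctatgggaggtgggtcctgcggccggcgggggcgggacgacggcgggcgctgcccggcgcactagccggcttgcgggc

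Genes of fat handling changed in both directions. Of 40 genes of fatty acid uptake and oxidation, 2 rose, 2 fell and 36 did not pass (10% passing, beside 2.99% of all names), with a median of 0.05. Decr1, the mitochondrial reductase needed to oxidise polyunsaturated fatty acids, ranged over log2 levels of 5.87 to 6.42 on HFD_Cont arrays with a median of 6.02, over 5.87 to 6.27 on HFD_O3 arrays with a median of 6.11, and over 5.63 to 6.002 on STD_Cont arrays with a median of 5.76. High fat and STD_Cont arrays overlapped, though 16 of 16 high fat arrays were above the STD_Cont median. Its rise was 0.29 ± 0.06 on the log2 scale, 1.22-fold, with an adjusted p of 0.0176. Fabp3, the muscle fatty acid binding protein, changed by 0.44 ± 0.12 (adjusted p = 0.0474), by 0.40 in HFD_Cont and 0.49 in HFD_O3. On HFD_Cont arrays Pdk4, the kinase that switches off pyruvate dehydrogenase, lay between 7.77 and 8.62 (median 8.25), on HFD_O3 arrays between 8.22 and 9.004 (median 8.51) and on STD_Cont arrays between 8.59 and 8.95 (median 8.78), in log2 units. The groups overlapped, with 15 of 16 high fat arrays below the STD_Cont median. Pdk4 was thus 1.29 times lower in high fat muscle (-0.37 ± 0.09, adjusted p = 0.0271). Ehhadh, a peroxisomal oxidation enzyme, averaged -0.83 ± 0.24 in HFD_Cont and -0.49 ± 0.54 in HFD_O3, against 0.01 ± 0.45 in STD_Cont, a change of -0.67 ± 0.18 (adjusted p = 0.0402). Of 21 lipid droplet and lipolysis genes, Plin4, Plin3 and Fitm2 fell and Mgll rose (19.1% passing). Plin4, a perilipin of the droplet coat, fell (-0.60 ± 0.13, adjusted p = 0.017), with 15 of 16 high fat arrays below the STD_Cont median. Plin3, another perilipin, changed by -0.45 ± 0.12 (adjusted p = 0.0375), by -0.57 in HFD_Cont and -0.33 in HFD_O3. Fitm2, which acts in droplet formation, averaged 1.61 ± 0.16 in HFD_Cont and 1.69 ± 0.11 in HFD_O3, against 1.88 ± 0.14 in STD_Cont, a change of -0.23 ± 0.06 (adjusted p = 0.042). Mgll, monoacylglycerol lipase, rose (0.29 ± 0.08, adjusted p = 0.0358), with 15 of 16 high fat arrays above the STD_Cont median. Of 17 fatty acid synthesis genes 2 fell (11.8%). Mid1ip1, an activator of acetyl-CoA carboxylase, changed by -0.39 ± 0.08 (adjusted p = 0.0141), by -0.40 in HFD_Cont and -0.37 in HFD_O3. Acaca, acetyl-CoA carboxylase 1, averaged 1.32 ± 0.10 in HFD_Cont and 1.22 ± 0.10 in HFD_O3, against 1.45 ± 0.11 in STD_Cont, a change of -0.18 ± 0.05 (adjusted p = 0.0461). None of 22 cholesterol synthesis genes passed limma's test, 4 had an unadjusted p under 0.05, and Sqle, squalene epoxidase, with the smallest p of the list, changed by 0.47 ± 0.14 (adjusted p = 0.0694).

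Of glucose uptake and glycolysis genes 3.57% passed, a share near the 2.99% of all names, and of insulin signalling genes 11.1%. Slc2a4, which encodes the glucose transporter GLUT4, was the only one of 28 glucose uptake and glycolysis genes to pass. Slc2a4 had log2 levels of 7.46 to 7.60 in HFD_Cont (median 7.51) and 7.26 to 7.64 in HFD_O3 (median 7.48), against 7.56 to 7.77 in STD_Cont (median 7.68). 16 of 16 high fat arrays lay below the STD_Cont median, and the ranges overlapped. The pooled change was -0.18 ± 0.04 (adjusted p = 0.0235), or 1.14 times lower in high fat. Of 27 insulin signalling genes 3 fell, Foxo1 among them. Ptpn1, the phosphatase that acts on the insulin receptor, fell (-0.27 ± 0.06, adjusted p = 0.0179), with 15 of 16 high fat arrays below the STD_Cont median. Tbc1d1, a Rab GTPase-activating protein in glucose transporter traffic, changed by -0.45 ± 0.12 (adjusted p = 0.0383), by -0.39 in HFD_Cont and -0.51 in HFD_O3. Of 39 respiratory chain genes 1 fell (2.56%), a share near the 2.99% of all names. Ndufs4, a complex I subunit, averaged 6.28 ± 0.09 in HFD_Cont and 6.30 ± 0.07 in HFD_O3, against 6.43 ± 0.08 in STD_Cont, a change of -0.14 ± 0.04 (adjusted p = 0.046).

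**Figure D4:**
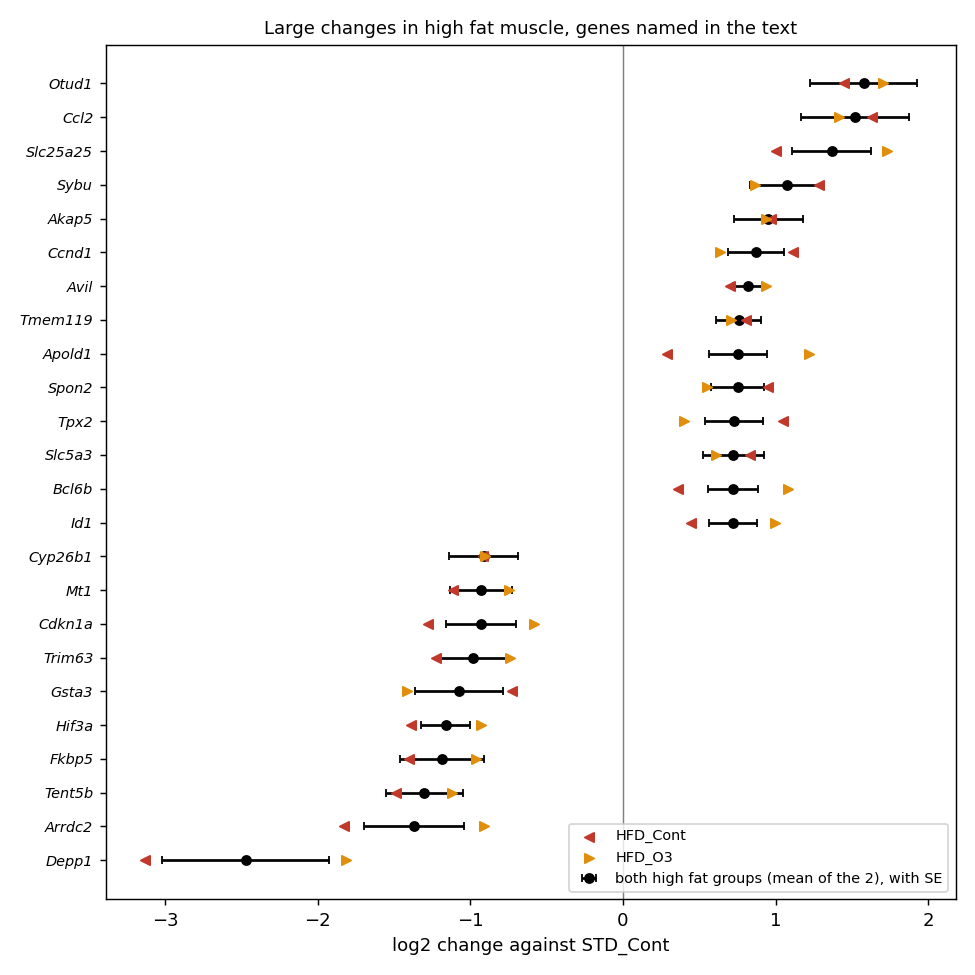
Log2 change against STD_Cont of 14 of the 15 largest rises and 10 of the 15 largest falls past the threshold among genes well above background in all 3 groups, those described in the text, with black points and bars for both high fat groups and the moderated SE, and triangles for HFD_Cont and HFD_O3. Both triangles lie on the same side of 0 for every gene, from -2.47 for Depp1 to 1.58 for Otud1 in the pooled change.

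Among the rises outside these lists stood Avil, an actin-binding protein of the villin family. Serpinh1, also given here, belongs to the matrix list described below. Avil ranged over log2 levels of 1.37 to 1.96 on HFD_Cont arrays with a median of 1.62, over 1.56 to 2.59 on HFD_O3 arrays with a median of 1.85, and over 0.81 to 1.095 on STD_Cont arrays with a median of 0.99. Every high fat array lay above every STD_Cont array. Its rise was 0.82 ± 0.10 on the log2 scale, 1.76-fold, with an adjusted p of 0.000226. On HFD_Cont arrays Serpinh1, the collagen chaperone HSP47, lay between 1.76 and 2.23 (median 2.08), on HFD_O3 arrays between 1.56 and 2.27 (median 1.97) and on STD_Cont arrays between 1.24 and 1.56 (median 1.39), in log2 units. High fat and STD_Cont arrays overlapped, though 16 of 16 high fat arrays were above the STD_Cont median. Serpinh1 was thus 1.52 times higher in high fat muscle (0.61 ± 0.08, adjusted p = 0.000226). Slc25a25, a mitochondrial carrier of ATP-magnesium and phosphate, had log2 levels of 0.51 to 1.60 in HFD_Cont (median 0.97) and 0.81 to 2.91 in HFD_O3 (median 1.68), against -0.96 to 1.69 in STD_Cont (median -0.04). The groups overlapped, with 16 of 16 high fat arrays above the STD_Cont median. The pooled change was 1.37 ± 0.26 (adjusted p = 0.00717), or 2.58 times higher in high fat. STD_Cont 5, at 1.69, was the array that reached into the high fat range. Otud1 ranged over log2 levels of -2.06 to 0.30 on HFD_Cont arrays with a median of -1.02, over -2.27 to 0.75 on HFD_O3 arrays with a median of -0.91, and over -3.19 to -1.44 on STD_Cont arrays with a median of -2.68. 16 of 16 high fat arrays lay above the STD_Cont median, and the ranges overlapped. Its rise was 1.58 ± 0.35 on the log2 scale, 2.98-fold, with an adjusted p of 0.0174. Sybu, a linker of cargo to kinesin, rose (1.08 ± 0.24, adjusted p = 0.0191), with 14 of 16 high fat arrays above the STD_Cont median. Akap5, a kinase anchoring protein, changed by 0.95 ± 0.23 (adjusted p = 0.0254), by 0.97 in HFD_Cont and 0.93 in HFD_O3. Tmem119, a membrane protein, averaged -2.40 ± 0.26 in HFD_Cont and -2.50 ± 0.48 in HFD_O3, against -3.21 ± 0.30 in STD_Cont, a change of 0.76 ± 0.15 (adjusted p = 0.00848). Slc5a3, the myo-inositol cotransporter, rose (0.72 ± 0.20, adjusted p = 0.0495), with 16 of 16 high fat arrays above the STD_Cont median. Spon2, a secreted matrix protein, changed by 0.75 ± 0.17 (adjusted p = 0.0217), by 0.95 in HFD_Cont and 0.55 in HFD_O3. The rises of Prnd, C2cd4a and Has3 rest on dim probes. Prnd, which encodes the prion-like protein doppel, averaged -2.67 ± 0.38 in HFD_Cont and -3.34 ± 0.59 in HFD_O3, against -4.36 ± 0.76 in STD_Cont, a change of 1.36 ± 0.25 (adjusted p = 0.00584). C2cd4a, a C2 domain gene, rose (1.01 ± 0.20, adjusted p = 0.0105), with 16 of 16 high fat arrays above the STD_Cont median. Has3, a hyaluronan synthase, changed by 0.64 ± 0.15 (adjusted p = 0.0263), by 0.69 in HFD_Cont and 0.59 in HFD_O3.

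Some large falls belonged to no list. Cxcl13, of the chemokine and cytokine list, is named with them for its dim probe. On HFD_Cont arrays Tent5b, a poly(A) polymerase, lay between -4.04 and -2.69 (median -3.39), on HFD_O3 arrays between -3.96 and -2.07 (median -3.07) and on STD_Cont arrays between -2.73 and -0.67 (median -1.82), in log2 units. High fat and STD_Cont arrays overlapped, though 16 of 16 high fat arrays were below the STD_Cont median. Tent5b was thus 2.46 times lower in high fat muscle (-1.30 ± 0.25, adjusted p = 0.00814). Gsta3, a glutathione transferase, averaged -1.72 ± 0.76 in HFD_Cont and -2.40 ± 0.82 in HFD_O3, against -0.99 ± 0.48 in STD_Cont, a change of -1.07 ± 0.29 (adjusted p = 0.0448). Cyp26b1, which degrades retinoic acid, fell (-0.91 ± 0.23, adjusted p = 0.0304), with 15 of 16 high fat arrays below the STD_Cont median. Cyp26b1 on STD_Cont 3 (2.92) lay far above the other STD_Cont arrays (up to 1.79). Galnt3, Cd27 and Cxcl13 had dim probes, well above background on all 8 STD_Cont arrays but on 2, 5 and 1 of the HFD_Cont and 4, 4 and 3 of the HFD_O3 arrays. Galnt3, which starts O-linked glycans, changed by -1.37 ± 0.29 (adjusted p = 0.0136), by -1.76 in HFD_Cont and -0.97 in HFD_O3. Cd27, a receptor of the tumour necrosis factor family, averaged -4.15 ± 0.51 in HFD_Cont and -4.56 ± 0.68 in HFD_O3, against -3.12 ± 0.33 in STD_Cont, a change of -1.24 ± 0.22 (adjusted p = 0.00524).

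A few genes of vessels and of rapid transcriptional responses rose. Of 28 hypoxia and angiogenesis genes, Nos3, Kdr, Aplnr and Angpt1 rose and Hif3a fell, with a list median of 0.01. The share passing was 17.9%, beside 2.99% of all names. Nos3, endothelial nitric oxide synthase, had log2 levels of 1.77 to 2.09 in HFD_Cont (median 1.88) and 1.71 to 2.07 in HFD_O3 (median 1.90), against 1.42 to 1.71 in STD_Cont (median 1.59). The groups overlapped, with 16 of 16 high fat arrays above the STD_Cont median. The pooled change was 0.31 ± 0.05 (adjusted p = 0.00347), or 1.24 times higher in high fat. Kdr, the receptor VEGFR2, rose (0.43 ± 0.09, adjusted p = 0.0128), with 16 of 16 high fat arrays above the STD_Cont median. Aplnr, the apelin receptor, changed by 0.63 ± 0.15 (adjusted p = 0.0233), by 0.85 in HFD_Cont and 0.41 in HFD_O3. Angpt1, the ligand of the TIE2 receptor, averaged 0.59 ± 0.18 in HFD_Cont and 0.54 ± 0.37 in HFD_O3, against 0.14 ± 0.13 in STD_Cont, a change of 0.43 ± 0.10 (adjusted p = 0.0295). Kdr was the only one of 15 endothelial markers to pass (6.67%), and the list median was 0.03. The summed level of that list ranged over 86.2 to 105 in HFD_Cont, 102 to 107 in HFD_O3 and 82.2 to 113 in STD_Cont. Of 29 immediate early genes, Nr4a1, Klf4 and Klf2 rose, Klf10 fell and 25 did not pass (13.8% passing). The list median was -0.04 for HFD_Cont and 0.14 for HFD_O3 against the same STD_Cont arrays. Nr4a1, an orphan nuclear receptor, ranged over log2 levels of 5.84 to 6.26 on HFD_Cont arrays with a median of 6.02, over 5.29 to 6.59 on HFD_O3 arrays with a median of 6.08, and over 5.09 to 5.68 on STD_Cont arrays with a median of 5.39. 15 of 16 high fat arrays lay above the STD_Cont median, and the ranges overlapped. Its rise was 0.66 ± 0.11 on the log2 scale, 1.58-fold, with an adjusted p of 0.00412. Klf4, a Krüppel-like factor, rose (0.56 ± 0.12, adjusted p = 0.0128), by 0.28 in HFD_Cont and 0.85 in HFD_O3 (adjusted p = 0.339 for the difference between these 2 groups). Klf2, a flow-responsive factor of endothelium, changed by 0.60 ± 0.14 (adjusted p = 0.0234), by 0.22 in HFD_Cont and 0.98 in HFD_O3. Klf10, a TGF-beta-induced factor, averaged 2.38 ± 0.18 in HFD_Cont and 2.72 ± 0.58 in HFD_O3, against 3.14 ± 0.29 in STD_Cont, a change of -0.59 ± 0.16 (adjusted p = 0.0462). Bcl6b, a repressor related to Bcl6, rose (0.72 ± 0.17, adjusted p = 0.0207), by 0.36 in HFD_Cont and 1.08 in HFD_O3 (adjusted p = 0.44 for the difference between these 2 groups). Apold1, an endothelial gene, changed by 0.75 ± 0.19 (adjusted p = 0.0344), by 0.29 in HFD_Cont and 1.22 in HFD_O3. Id1, a target of BMP signalling, averaged 2.06 ± 0.29 in HFD_Cont and 2.61 ± 0.22 in HFD_O3, against 1.61 ± 0.55 in STD_Cont, a change of 0.72 ± 0.16 (adjusted p = 0.017). Klf4, Klf2, Bcl6b, Apold1 and Id1 did not pass in HFD_Cont alone against STD_Cont (limma adjusted p = 0.3, 0.56, 0.354, 0.567 and 0.2). All of them passed in HFD_O3 alone, and none passed between the 2 high fat groups. A rise shared by both high fat groups was thus not shown for them.

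Matrix genes had mostly small positive changes. Of 50 measured, 3 rose (Serpinh1, Col4a2 and Col6a3), 0 fell and 47 did not pass (6% passing, beside 2.99% of all names). Positive changes made up 42 of the 50, with a median of 0.13. The median was 0.26, 0.21 and -0.04 within slides 1, 2 and 3, and 0.02 in the fit with a block for slide and row. Col4a2, a basement membrane collagen chain, rose (0.29 ± 0.07, adjusted p = 0.0235), with 15 of 16 high fat arrays above the STD_Cont median. Col6a3, a collagen VI chain, changed by 0.47 ± 0.12 (adjusted p = 0.0383), by 0.58 in HFD_Cont and 0.36 in HFD_O3. None of 12 fibroblast markers passed limma's test, 4 had an unadjusted p under 0.05, and 8 of 12 changes were positive with a median of 0.03. Dcn, decorin, with the smallest p of the list, changed by -0.21 ± 0.07 (adjusted p = 0.0851). Of 25 chemokine and cytokine genes, Ccl2, Cxcl12 and Cxcl16 rose and Cxcl13 and Il6ra fell (20% passing). On HFD_Cont arrays Ccl2, which attracts monocytes, lay between -2.04 and 0.02 (median -1.74), on HFD_O3 arrays between -3.25 and 0.70 (median -2.05) and on STD_Cont arrays between -3.81 and -2.45 (median -3.03), in log2 units. High fat and STD_Cont arrays overlapped, though 15 of 16 high fat arrays were above the STD_Cont median. Ccl2 was thus 2.87 times higher in high fat muscle (1.52 ± 0.35, adjusted p = 0.0218). Cxcl12, a stromal chemokine, averaged 4.01 ± 0.19 in HFD_Cont and 3.88 ± 0.30 in HFD_O3, against 3.51 ± 0.20 in STD_Cont, a change of 0.43 ± 0.10 (adjusted p = 0.0208). Cxcl16, a membrane-bound chemokine, rose (0.29 ± 0.08, adjusted p = 0.0387), with 15 of 16 high fat arrays above the STD_Cont median. Cxcl13, which attracts B cells, changed by -1.64 ± 0.42 (adjusted p = 0.0354), by -2.17 in HFD_Cont and -1.11 in HFD_O3. The sizes are uncertain, since its probe was well above background on only 1 HFD_Cont and 3 HFD_O3 arrays. Of 13 macrophage markers 1 passed (7.69%). Cd163, a haemoglobin scavenger receptor, averaged -0.61 ± 0.32 in HFD_Cont and -0.58 ± 0.40 in HFD_O3, against -0.04 ± 0.24 in STD_Cont, a change of -0.56 ± 0.14 (adjusted p = 0.0285).

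The D-type cyclins Ccnd1 and Ccnd2 rose while other cell cycle genes went either way. Of 26 cell cycle genes, Ccnd1, Ccnd2 and Tpx2 rose and Cdkn1a, Mcm3 and Mcm7 fell. The share passing was 23.1%, beside 2.99% of all names. Ccnd2, a D-type cyclin, had log2 levels of 1.64 to 2.32 in HFD_Cont (median 1.95) and 1.53 to 2.49 in HFD_O3 (median 1.69), against 1.16 to 1.496 in STD_Cont (median 1.36). The high fat and STD_Cont arrays did not overlap. The pooled change was 0.55 ± 0.10 (adjusted p = 0.007), or 1.46 times higher in high fat. Ccnd1, another D-type cyclin, rose (0.87 ± 0.18, adjusted p = 0.0128), by 1.11 in HFD_Cont and 0.64 in HFD_O3. Tpx2, a spindle factor, changed by 0.73 ± 0.19 (adjusted p = 0.0382), by 1.05 in HFD_Cont and 0.40 in HFD_O3. Mcm3, a subunit of the replication helicase, averaged 0.15 ± 0.14 in HFD_Cont and 0.29 ± 0.11 in HFD_O3, against 0.44 ± 0.13 in STD_Cont, a change of -0.22 ± 0.06 (adjusted p = 0.0367). Mcm7, another helicase subunit, fell (-0.25 ± 0.07, adjusted p = 0.0474), with 14 of 16 high fat arrays below the STD_Cont median. Of 25 heat shock genes 3 rose and 0 fell (12% passing). Dnaja1, an HSP40 co-chaperone, changed by 0.24 ± 0.06 (adjusted p = 0.0235), by 0.15 in HFD_Cont and 0.34 in HFD_O3. Dnajb1, another HSP40 co-chaperone, averaged 1.97 ± 0.11 in HFD_Cont and 2.47 ± 0.26 in HFD_O3, against 1.90 ± 0.19 in STD_Cont, a change of 0.32 ± 0.08 (adjusted p = 0.0362). Hspb3, a small heat shock protein of muscle, rose (0.30 ± 0.07, adjusted p = 0.0255), with 15 of 16 high fat arrays above the STD_Cont median. Of 29 oxidative stress genes, Mt1 and Hmox1 fell (6.9%). Hmox1, haem oxygenase 1, changed by -0.55 ± 0.11 (adjusted p = 0.0109), by -0.72 in HFD_Cont and -0.39 in HFD_O3. Of 29 unfolded protein and integrated stress response genes 1 fell (3.45%), a share near that of all names. Chac1, a glutathione-degrading enzyme, averaged 5.07 ± 0.46 in HFD_Cont and 5.46 ± 0.46 in HFD_O3, against 6.003 ± 0.51 in STD_Cont, a change of -0.74 ± 0.20 (adjusted p = 0.0415). Of 36 genes of amino acid, polyamine and NAD metabolism, Glul and Prodh fell (5.56%). Prodh, proline dehydrogenase, fell (-0.66 ± 0.16, adjusted p = 0.0255), with 15 of 16 high fat arrays below the STD_Cont median. Of 31 TGF-beta, BMP and Id genes, Id1 rose and Bmp4 fell (6.45% passing). Bmp4, a BMP ligand, changed by -0.34 ± 0.08 (adjusted p = 0.0251), by -0.33 in HFD_Cont and -0.35 in HFD_O3.

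Contractile and myogenic genes gave 0 calls by limma. None of 37 sarcomere and fibre type genes, 24 myogenic and denervation genes or 28 interferon response genes passed, and 0, 6 and 4 of them had an unadjusted p under 0.05, and the list medians were 0.01, 0.0009 and 0.10. Musk, the receptor kinase of the neuromuscular junction, had the smallest p of the myogenic list and changed by -0.49 ± 0.15 (adjusted p = 0.083). Igtp, an interferon-induced GTPase, changed by 0.25 ± 0.08 (adjusted p = 0.0854). Casq1, calsequestrin of fast fibres, changed by 0.10 ± 0.10 (adjusted p = 0.684). Among other cells of muscle, Angptl7 fell in the tendon list (1 of 11, 9.09%) and Vcam1 rose in the satellite cell list (1 of 9, 11.1%). The share passing over all names was 2.99%. Angptl7 was the only negative change of the tendon list, whose other 10 were positive and whose median was 0.18. Angptl7, a secreted angiopoietin-like protein, averaged -1.02 ± 0.30 in HFD_Cont and -0.92 ± 0.58 in HFD_O3, against -0.10 ± 0.46 in STD_Cont, a change of -0.87 ± 0.19 (adjusted p = 0.017). Vcam1, an adhesion molecule, rose (0.35 ± 0.08, adjusted p = 0.0245), with 15 of 16 high fat arrays above the STD_Cont median. None of 12 Schwann cell markers passed and 2 had an unadjusted p under 0.05, while all 12 changes were negative with a median of -0.32, and their summed level ranged over 15.5 to 62.7 in HFD_Cont, 13.4 to 25.0 in HFD_O3 and 13.6 to 59.8 in STD_Cont. Gldn, gliomedin of the node of Ranvier, changed by -0.62 ± 0.22 (adjusted p = 0.137). Of 9 erythroid markers 0 passed (3 at an unadjusted p under 0.05), 8 were negative, and Alas2, the haem synthesis enzyme of red cells, changed by -0.26 ± 0.11 (adjusted p = 0.261). White adipocyte markers gave 0 calls of 15, also at an unadjusted p of 0.05, with a median of 0.21 overall and of -0.81, 0.77 and 0.24 within slides 1, 2 and 3. Fabp4, the adipocyte fatty acid binding protein, changed by 0.19 ± 0.11 (adjusted p = 0.411). The 7 brown adipocyte, 12 pericyte and smooth muscle, 6 neutrophil, 5 T and NK cell, 7 B and plasma cell and 7 mast cell markers measured gave 0 calls by limma, and 2, 1, 1, 0, 0 and 1 of them had an unadjusted p under 0.05.

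The 2 high fat groups were compared with each other for the genes above. HFD_O3 against HFD_Cont gave 0 calls of 19938 by limma (0%), with a smallest adjusted p of 0.231 and 1463 names at an unadjusted p under 0.05. An unadjusted lineage p under 0.05 was found for 16.8% of the 596 genes that differed between high fat and low fat, beside 7.34% of all names. Both contrasts use the same residual spread of a gene, and the 596 were chosen partly for a small spread. The higher share was thus partly built in, and how far was not tested. HFD_O3 was the group nearer to STD_Cont in 418 of them, and in 11168 of all 19938 names. HFD_O3 arrays were uneven in this. HFD_O3 7 lay above the STD_Cont median for 50.4% of the lower genes, and HFD_O3 8 below it for 22.7% of the higher genes. HFD_O3 5 and 6 did so for 0% of either. The 418 were not recounted without HFD_O3 7 or 8. The median HFD_O3 minus HFD_Cont difference was -0.05 among the 322 higher genes and 0.09 among the 274 lower genes. Dnajb1 had the smallest lineage p, with HFD_O3 above HFD_Cont by 0.51 ± 0.10 (adjusted p = 0.231), and its changes against the shared STD_Cont arrays were 0.57 in HFD_O3 and 0.07 in HFD_Cont. Klf2 differed by 0.77 ± 0.16 and Epha2, an ephrin receptor, by 0.51 ± 0.11, both higher in HFD_O3 and both at an adjusted p of 0.327. Mfap3l, a microfibril-associated gene, differed by -0.57 ± 0.12 and Aldoc, aldolase C, by -0.41 ± 0.09, both lower in HFD_O3 and both at an adjusted p of 0.327. Depp1 changed by -1.81 in HFD_O3 and by -3.13 in HFD_Cont against STD_Cont, and the 2 high fat groups differed by 1.32 ± 0.63, which did not pass the adjusted threshold (adjusted p = 0.673).

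Counts were also taken with slide, array row or adipocyte marker level in the fit, and without the arrays highest in adipocyte markers. With slide as a fixed block 534 names passed and with slide as a random block 520. Within slides 1, 2 and 3 alone 0 passed by limma and 1631, 2808 and 1077 had an unadjusted p under 0.05, with at most 3 STD_Cont arrays on a slide. The direction was kept by 595, 595 and 592 of the 596. These names were chosen on the same arrays, so that agreement was largely built in and is no independent check. With slide and row as a block 104 passed (64 higher and 40 lower), 91 of them among the 596. Of the 82 genes past the threshold that are described above, 16 passed with that block, among them Avil (0.99, adjusted p = 0.000356), Serpinh1 (0.65, adjusted p = 0.00131) and Hif3a (-1.14, adjusted p = 0.00923). Depp1 (-2.22, adjusted p = 0.171), Fkbp5 (-1.27, adjusted p = 0.107) and Trim63 (-0.92, adjusted p = 0.14) did not, and of the 25 glucocorticoid-induced genes 1 did, Hif3a. A fit with the white adipocyte score as covariate passed 575 names, and without the 7 arrays of the highest score 6 passed, Avil (0.86) and Hif3a (-1.07) among them. That fit also holds fewer arrays in every group. Leaving out 1 of the 7 at a time gave 215 to 493 calls. Without all 7, the median of the glucocorticoid list was -0.37, and that of the atrophy list was -0.13. What part of each change goes with row or adipose tissue was not tested beyond these values, and fewer cells of a type and less RNA per cell cannot be told apart in these bulk samples.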

How the data were processed

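Total RNA from mouse skeletal muscle was labelled with Cy3 and hybridised to one-colour arrays, per the labels' protocols. The deposited scanner files hold spot intensity that Agilent Feature Extraction 10.10.1.1 had background-subtracted and detrended, per the file headers, with probe coordinates on mm9. The authors' deposited value table is in log2 units of 30124 probes, and the submitters' processing notes name limma without a version for it. Its scale and centring are not stated, its column medians lay at 7.69 to 7.70, and each of its 24 columns matched its own array best (lowest correlation 0.991). It served as an alternative.

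Outlier spots were dropped, the spots of each probe averaged, and the log2 processed intensity scaled by each array's 75th percentile. Of 56605 probes, 29246 passed a filter of 6 arrays well above background out of 8 in some group. The brightest kept probe represented each of 19938 names, 6303 of which had several kept probes. Of all probes 32994 were named through the RefSeq table by accession and the others by the array design. limma 3.58.1 in R 4.3.3 was fitted to all 24 arrays with 3 group means (lmFit and eBayes, two-sided), with the mean of HFD_Cont and HFD_O3 minus STD_Cont as the main contrast and HFD_O3 minus HFD_Cont as the second. Tested on simulated data of 19938 genes, 69% of log2 changes of 0.5 and 92% of changes of 1 were recovered, and 8 of 19738 unchanged genes were called. The simulated noise was independent and normal, with 1 SD per gene for all groups. It held no slide, row, adipose or outlying-array effects, so these shares do not measure recovery or false calls in the real arrays.

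Genes were named by a rule: the 15 largest rises and falls past an adjusted p of 0.05 with a plain symbol and a probe well above background in each group, up to 4 rises and 4 falls with dimmer probes, up to 4 members each way of each of 38 lists (otherwise up to 2 with the smallest p), and 3 genes each way of the second contrast. The text describes most of them, and some are not reported here. The comparison and the lists were chosen with earlier results of these data known. Replicate numbers did not pair the samples: same-numbered arrays of 2 groups had correlations of their deviations between -0.14 and 0.36. Alternatives were normexp background correction (offset 50), other scalings, the deposited table, other filters and probe rules, slide and row blocks, single slides, the replicate number as block, other variance models, a white adipocyte score as a covariate or a filter, and each array left out in turn. Files were read with pandas and figures drawn with matplotlib. Precision is limited by having 8 arrays in each group.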

Additional observations from a re-analysis of the deposited data

Results flagged for a closer look

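For 93 genes named in the report, the 8 arrays of each group were searched for a log2 level whose gap to the nearest other array was too large a share of the group's range by Dixon's critical value. 12 such levels were found in 279 groups, where chance gives about 1 in 20, or 13.9, so their number is no larger than chance gives. High levels were those of Arrdc2 on HFD_O3 7 (5.66, next array 3.46), Cxcl13 on HFD_Cont 4 (-3.78, next array -4.96) and Cyp26b1 on STD_Cont 3 (2.92, next array 1.79). Further high levels were those of Decr1 on HFD_Cont 3 (6.42, next array 6.13), Dnajb1 on HFD_Cont 3 (2.20, next array 1.996) and Fabp4 on HFD_Cont 4 (7.48, next array 6.90). The remaining high levels were those of Klf9 on HFD_Cont 4 (4.14, next array 3.99), Slc25a25 on STD_Cont 5 (1.69, next array 0.22) and Sybu on HFD_Cont 4 (-2.005, next array -2.55). Low levels were those of Gsta3 on HFD_O3 1 (-4.08, next array -2.65), Per3 on HFD_O3 7 (-0.054, next array 0.57) and Sybu on STD_Cont 3 (-5.78, next array -3.93). HFD_Cont 4, which gave 4 of the 12, had the highest white adipocyte score of all arrays (1.68). Dnajb1, Decr1 and Klf9 changed by 0.32, 0.29 and -0.40 with all arrays kept. The causes were not tested.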

How the results depend on the processing

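Of the 596 names past the threshold, 592 to 596 kept their direction in each of the settings that changed scaling to normexp, quantile, cyclic loess or median, or took a block or a single slide. All these settings reuse the arrays on which the 596 were chosen, so agreement in direction was largely built in. The count moved to 221 with median scaling (122 higher, 99 lower), 182 with no filter on dim probes (37325 names tested), 0 within each of slides 1, 2 and 3, 104 with a block for slide and row, 1096 without HFD_O3 arrays 1 and 7 (504 higher, 592 lower) and 6 without the 7 arrays of a white adipocyte score over 0.5. Some of these settings hold fewer arrays or more names. Median scaling and the slide and row block keep all arrays and names. Row 2 of slide 1 and row 1 of slide 2 held no STD_Cont array, however. With the block, high fat and low fat could not be compared within those rows. The causes were not tested. With 1 array left out it ran from 215 to 1142. It was 215 without STD_Cont 1, 294 without STD_Cont 3, 312 without STD_Cont 4, 346 without STD_Cont 7, 336 without STD_Cont 8, 374 without HFD_O3 5, 373 without HFD_O3 6 and 1142 without HFD_O3 7. Without STD_Cont 6 the count was 773. HFD_O3 against HFD_Cont gave 0 calls in every setting except 2 without HFD_Cont 3 (range over single arrays left out 0 to 2). Of the other settings, array weights gave 821, every probe 786, normexp 443 and the authors' deposited values 549. The replicate block gave 595 calls (334 higher, 261 lower), 496 of them shared, and the numbers do not pair the samples. Scaling moved the median of all names by at most 0.0093. Single genes turned direction within a slide, Fabp4 at -0.10 on slide 1, Gsta3 at 0.0043 and Mfap3l at 0.0558 on slide 2, and Klf10 at 0.0571 on slide 3. Casq1 turned to -0.0145 with the slide and row block and -0.035 without the adipocyte-rich arrays. Of 82 genes past the threshold that the report describes, 50 passed with median scaling, 31 with no filter, 34 without STD_Cont 1 and 82 without HFD_O3 7. Dim probes such as those of Ciart and Cxcl13 are limited by signal over background.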
